A study of Mus musculus with 12 samples.

Results

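In mouse skin and skin tumours, miR-204-5p and miR-211-5p, a pair of microRNAs (miRNAs) linked to pigment cells, were followed across genotypes after being chosen by name: the rows mmu-mir-204-5p and mmu-mir-211-5p are 2 of the 1251 miRNA rows of the deposited table. The labels give 4 groups of C57Bl6 mice. TAp63-/- mice, homozygous for loss of the transactivating form of p63, a transcription factor related to p53, and called KO here, gave 4 cutaneous squamous cell carcinomas (KO SCC) and 3 samples of dorsal skin (KO skin), while Wild-type mice gave 2 carcinomas (WT SCC) and 3 skin samples (WT skin). Carcinoma donors were older than 35 weeks and had been irradiated chronically with ultraviolet light (UVR), 3 times a week at 2.5 kJ/m2. Skin donors were untreated and 4 weeks old, so tumour, irradiation and age cannot be told apart in any comparison of SCC with skin. Sample titles begin with LM for every carcinoma and with Su for every skin sample. Any difference between these title series likewise cannot be told apart from tissue. The labels do not say that each sample is a separate mouse, and p-values measure only how far these samples spread, part of which may be technical. TAp63 itself is not measured by a miRNA table, so the genotypes could not be checked from these values.

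A miRNA is a short RNA that guides Argonaute proteins to messenger RNAs, mainly through its seed, bases 2 to 8 from the 5′ end, and so lowers the output of its targets. miR-211 is carried in an intron of Trpm1 (melastatin), a gene switched on in melanocytes by the pigment-lineage transcription factor MITF, and is transcribed with it. miR-204 is carried in an intron of the related gene Trpm3, is abundant in the retinal pigment epithelium and is also found outside the pigment lineage, so it is the less specific of the pair. In furred mouse skin most melanocytes sit in hair follicles, whereas squamous cell carcinoma arises from keratinocytes. Lower miR-204 has also been described in human cutaneous squamous cell carcinoma.

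The mature sequences are shown because they set what the table can tell apart, with the seed in capitals (RefSeq, GRCm38.p6):
mmu-miR-204-5p: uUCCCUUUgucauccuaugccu
mmu-miR-211-5p: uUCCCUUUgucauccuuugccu
Both are 22 bases long, share the seed UCCCUUU and are identical at 21 bases. The only difference is A17U, counted from 1 at the 5′ end, with the miR-204-5p base first. A read that ends within the first 16 bases, or a mapping that allows 1 mismatch, could therefore be counted for either miRNA, and the sources used here do not say how such reads were assigned. Of 1738 mature mouse entries in RefSeq, 3 have this seed. The third, mmu-miR-7670-3p, has no row in the deposited table and could not be analysed.

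The precursor hairpins are shown because 1 arm of each exceeded the floor, with the mature 5p arm in capitals:
Mir204: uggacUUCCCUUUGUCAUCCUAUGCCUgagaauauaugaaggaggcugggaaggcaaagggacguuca
Mir211: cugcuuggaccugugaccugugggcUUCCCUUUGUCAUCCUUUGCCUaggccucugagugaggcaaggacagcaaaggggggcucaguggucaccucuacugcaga
In GRCm38, mature miR-204-5p lies at chr19:22750610-22750631 and mature miR-211-5p at chr7:64205831-64205852, both on the plus strand. The Mir204 hairpin was intronic in all 18 annotated Trpm3 transcripts that span it, and the Mir211 hairpin in all 12 annotated Trpm1 transcripts that span it. Outside the mature 5p arm the hairpins have different loops and lengths (68 and 106 bases). The table also has a row for each 3p arm. The values of miR-204-3p, like those of miR-211-3p, lay in all 12 libraries at the floor of the deposited values, a linear value of 10, so only the 5p arms could be compared.

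Values are the authors' log2 levels. From the values they had been quantile normalized, so a level stands for a rank within its library, and nothing below the log2 of 10 (3.32) is kept. KO SCC libraries had 432 to 545 miRNAs above that floor, WT SCC libraries 402 to 420, KO skin libraries 370 to 465 and WT skin libraries 390 to 433. Read depth is unknown. The fit was made on 544 miRNAs, those that exceeded the floor in 2 or more libraries. WT SCC replicate 2 stood apart from the other tumours: on the first principal component of the tested miRNAs without the pair, which held 54.7% of the variance, its score was 9.03. The remaining 5 tumours scored 13.7 to 18.4 and the 6 skin libraries -19.7 to -12.3. Results that rest on it are given with and without it. The 2 most abundant of the 8 keratinocyte miRNAs, miR-205-5p and miR-203-3p, were high in both tissues: miR-205-5p averaged 18.29 in KO SCC, 17.86 in WT SCC, 16.56 in KO skin and 16.51 in WT skin (log2), and miR-203-3p averaged 16.67, 17.40, 17.59 and 17.67 in the same groups. No melanocyte marker other than the pair itself is measured in the table.

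miR-204-5p was high in skin, lower in every tumour than in any skin library, and lowest in KO tumours. Its log2 level was 6.94, 6.29, 6.11 and 6.97 in the 4 KO SCC libraries and 8.07 and 9.72 in the 2 WT SCC libraries. It was 12.59, 10.84 and 10.84 in the KO skin libraries and 11.89, 11.73 and 12.15 in the WT skin libraries. All 6 tumours lay below all 6 skin libraries, as they did for 11.6% of tested miRNAs. The 4 KO tumours also lay below both WT tumours, as they did for 4.23%. The equal values of KO skin replicates 2 and 3 arise because it held rank 110 of 1251 in both. By rank it stood between 254 and 297 in KO SCC, at 205 and 147 in WT SCC, between 70 and 110 in KO skin and between 77 and 85 in WT skin.

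miR-211-5p followed the same order of groups with a wider spread. The log2 levels were 5.74, 5.46, 4.28 and 6.07 in KO SCC and 6.33 and 9.75 in WT SCC. In skin they were 8.39, 8.96 and 10.75 for KO and 11.20, 10.27 and 8.72 for WT. In 5 tumours the level lay below all skin libraries, while WT SCC replicate 2 was inside the skin range and above 3 of the 6 skin libraries. KO SCC replicate 3, at a linear value of 19.5, was the library nearest to the floor.

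**Figure D1:**
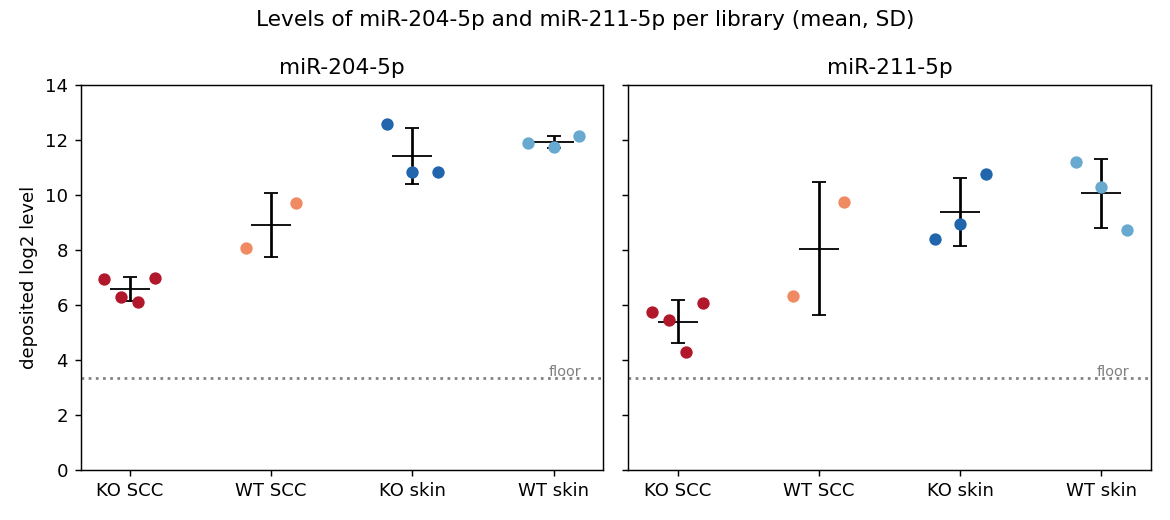
Deposited log2 level of miR-204-5p (left) and miR-211-5p (right) in each library (points) of KO SCC, WT SCC, KO skin and WT skin, with the group mean and SD (bars); the dotted line is the floor. miR-204-5p lay at 6.11 to 9.72 in tumours and at 10.84 to 12.59 in skin, while miR-211-5p of WT SCC replicate 2, at 9.75, reached the skin range.

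By group mean, both miRNAs ran from KO SCC (lowest) through WT SCC and KO skin to WT skin (highest). For miR-204-5p the means were 6.58 ± 0.44 in KO SCC (SD, n = 4), 8.89 ± 1.16 in WT SCC (n = 2), 11.42 ± 1.01 in KO skin (n = 3) and 11.92 ± 0.21 in WT skin (n = 3). For miR-211-5p they were 5.39 ± 0.78, 8.04 ± 2.42, 9.37 ± 1.23 and 10.06 ± 1.26 in the same groups. The neighbours KO skin and WT skin overlapped for both miRNAs, and WT SCC overlapped KO skin and WT skin for miR-211-5p. The linear values of the pair were added, which covers 2 of the 3 miRNAs with this seed. The sum was 88.4 to 193 in KO SCC, 349 and 1703 in WT SCC, 2326 to 6496 in KO skin and 4628 to 6160 in WT skin. Every tumour lay below every skin library in this sum, as was so for 11.6% of tested miRNAs taken singly.

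Averaged over the genotypes, SCC had less of both miRNAs than skin. miR-204-5p fell by 3.94 ± 0.39 (log2, SE), or 15.3-fold, with an adjusted p of 2.6e-05 (limma, Benjamini-Hochberg over the 544 tested miRNAs). miR-211-5p fell by 3.00 ± 0.68, or 8.01-fold (limma, adjusted p = 0.00479). In this comparison 21.5% of all tested miRNAs were called lower, so a lower call is common here. Ordered by fold change, miR-204-5p was the fourth lowest and miR-211-5p the 12th lowest of 544, beside a median change of 0.04 over all tested miRNAs. Ordered by p-value in either direction, miR-204-5p was 11th and miR-211-5p 113th. The 11.6% of tested miRNAs whose 6 tumours all lay below the 6 skin libraries include miR-204-5p and not miR-211-5p. In bulk tissue, fewer cells that make a miRNA and less of it per cell cannot be told apart.

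In KO mice the decrease was called for both. miR-204-5p fell by 4.84 ± 0.50 in KO SCC relative to KO skin, or 28.7-fold (limma, adjusted p = 7.3e-05), the second lowest change of the 544. miR-211-5p fell by 3.98 ± 0.87, or 15.8-fold (limma, adjusted p = 0.00478), the fifth lowest. Ordered by p-value in either direction, miR-204-5p was 6th and miR-211-5p 89th. The groups did not overlap for either, which held for 20.2% of tested miRNAs in this direction, and 18.2% of tested miRNAs were called lower. These calls held in each of the 22 alternative settings, with log2 changes between -5.14 and -4.26 for miR-204-5p and between -4.47 and -3.29 for miR-211-5p.

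In WT mice, with 2 tumours, miR-204-5p fell by 3.03 ± 0.59, or 8.17-fold (limma, adjusted p = 0.00648), beside 9.38% of tested miRNAs called lower. The 2 tumours lay below the 3 skin libraries, as they did for 23.2% of tested miRNAs. This call ended when the fit held only the WT groups (adjusted p = 0.0678) and without WT SCC replicate 1 (-2.21, adjusted p = 0.0924). miR-211-5p was not called, at -2.02 ± 1.04 (limma, adjusted p = 0.221), with a 95% interval from -4.32 to 0.27. Its value rests on which tumour is kept. It was -3.74 (limma, adjusted p = 0.0351) without WT SCC replicate 2 and -0.31 (limma, adjusted p = 0.999) without WT SCC replicate 1, where in each case the lone tumour is assumed to vary like the other groups.

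KO skin did not differ detectably from WT skin in either miRNA. The change was -0.50 ± 0.53 for miR-204-5p, with a 95% interval from -1.67 to 0.66, and -0.70 ± 0.93 for miR-211-5p, with an interval from -2.75 to 1.35 (limma, adjusted p = 1 for each). With 1 library left out, the change ran from -1.09 (without KO skin replicate 1) to -0.21 (without KO skin replicate 2 or 3) for miR-204-5p and from -1.39 (without KO skin replicate 3) to -0.13 (without WT skin replicate 1) for miR-211-5p. The groups overlapped for both miRNAs. Of all tested miRNAs, 0% were called in this comparison by limma, and 31 had an unadjusted p under 0.05.

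KO tumours had lower values than WT tumours for both miRNAs, but neither difference passed the test over all miRNAs. miR-204-5p was at -2.32 ± 0.56 in KO SCC relative to WT SCC (limma, adjusted p = 0.113), and the 4 KO tumours lay below both WT tumours. Such a separation was seen for 4.23% of tested miRNAs, and 0.184% were called lower, which was 1 miRNA, miR-20b-5p, named here after its value was seen. miR-211-5p was at -2.65 ± 0.99 (limma, adjusted p = 0.404), again with the 4 KO tumours (at most 6.07) below both WT tumours (at least 6.33). Both values rest on which WT tumour is kept. Without WT SCC replicate 2 they were -1.49 for miR-204-5p (limma, adjusted p = 0.367) and -0.94 for miR-211-5p (limma, adjusted p = 0.800), and without WT SCC replicate 1 they were -3.14 (adjusted p = 0.0771) and -4.36 (adjusted p = 0.118).

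Whether the tumour decrease differed between genotypes was tested by the interaction, the KO tumour effect minus the WT tumour effect. It was -1.81 ± 0.77 for miR-204-5p (limma, adjusted p = 0.560) and -1.95 ± 1.36 for miR-211-5p (limma, adjusted p = 0.788). Of all tested miRNAs 0% were called for the interaction by limma, and 41 had an unadjusted p under 0.05. Without WT SCC replicate 2 the interaction was -0.99 for miR-204-5p (limma, adjusted p = 0.758) and -0.24 for miR-211-5p (0.958). Without WT SCC replicate 1 it was -2.64 for miR-204-5p (limma, adjusted p = 0.416) and -3.67 for miR-211-5p (0.559). A larger decrease in KO mice was therefore not shown.

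**Figure D2:**
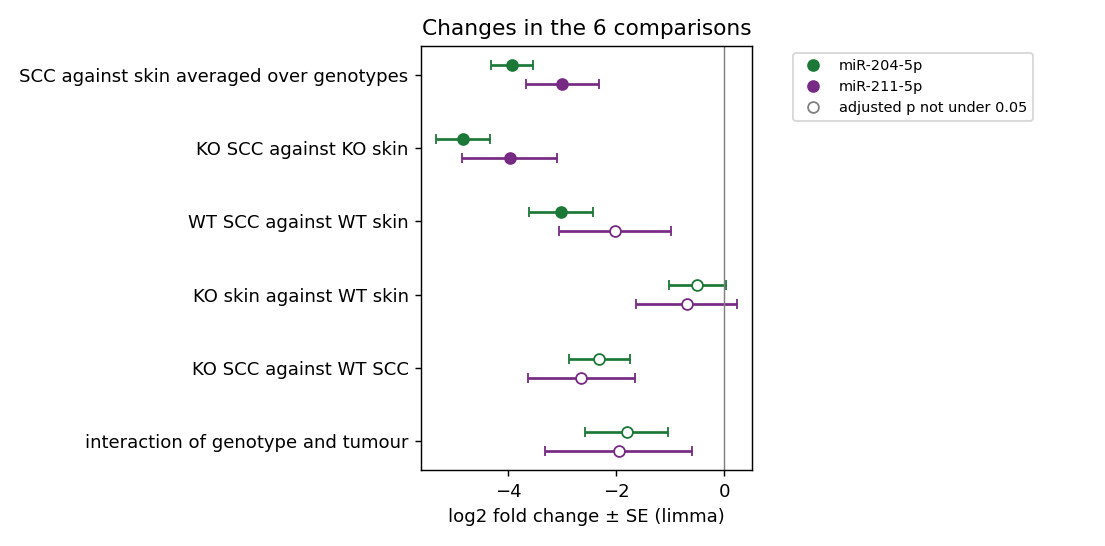
Log2 fold change with its SE (horizontal bars) of miR-204-5p and miR-211-5p in the 6 comparisons; filled points have an adjusted p under 0.05. All 12 values lie below 0, and the filled points are those of SCC against skin, averaged and in KO mice, for both miRNAs and in WT mice for miR-204-5p.

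Within a library, miR-204-5p was the more abundant of the pair in 11 of 12 libraries; both are of the same length, but how well each was cloned was not tested. The ratio of miR-204-5p to miR-211-5p on the linear scale was 2.29, 1.78, 3.54 and 1.88 in KO SCC and 3.35 and 0.977 in WT SCC. It was 18.4, 3.68 and 1.06 in KO skin and 1.62, 2.74 and 10.8 in WT skin. In skin it ran from near equality in KO skin replicate 3 to an excess of miR-204-5p in KO skin replicate 1. The log2 ratio in SCC minus that in skin was -0.93 (exact two-sided permutation within genotypes, 350 arrangements, p = 0.277, adjusted p = 0.554 over 2 ratio tests). It ran from -1.43 without KO skin replicate 3 to -0.40 without KO skin replicate 1, and was -0.49 without WT SCC replicate 2. Between KO and WT it differed by 0.26 (exact two-sided permutation within tissues, 300 arrangements, p = 0.710, adjusted p = 0.710), and this value was below 0 without WT SCC replicate 2, KO skin replicate 1 or WT skin replicate 1. An unequal change of the pair was not detectable.

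**Figure D3:**
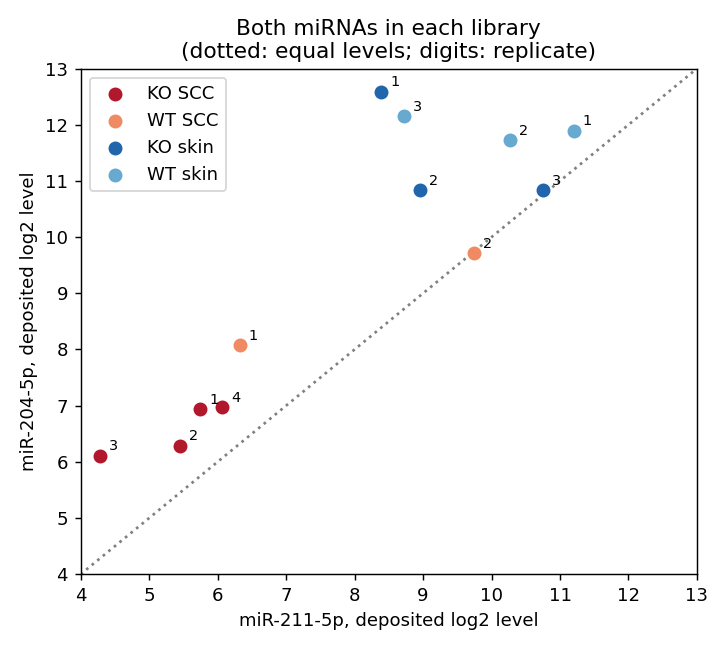
Deposited log2 level of miR-204-5p (vertical) against miR-211-5p (horizontal) in each of the 12 libraries, coloured by group, with replicate numbers; the dotted line marks equal levels. WT SCC replicate 2 lies on the line between the other tumours, at the lower left, and the skin libraries, which differ more in miR-211-5p (8.39 to 11.20) than in miR-204-5p (10.84 to 12.59).

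The promoters of the host genes were searched for CATGTG and CACGTG, core letters of the E-boxes that MITF binds, on both strands of 300-base windows from 250 bases before to 50 after each RefSeq start. CACGTG reads the same on both strands, and the motifs do not overlap one another here. CATGTG stood in 14.2% and CACGTG in 7.15% of the 32851 windows of that length, and either in 20.4%. Both Trpm1 windows held a match and neither of the 2 Trpm3 windows did. The Trpm1 window whose start lies nearer to Mir211, 20347 bases before the hairpin, is shown because it carried both motifs, in capitals (chr7:64185209-64185508, plus strand):
Trpm1: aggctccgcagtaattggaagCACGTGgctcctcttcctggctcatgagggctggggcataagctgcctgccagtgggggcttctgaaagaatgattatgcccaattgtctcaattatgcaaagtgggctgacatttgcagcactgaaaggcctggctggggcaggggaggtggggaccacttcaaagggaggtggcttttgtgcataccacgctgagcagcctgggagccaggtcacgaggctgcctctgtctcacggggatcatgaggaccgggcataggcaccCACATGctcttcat
A match of 6 letters is common and describes the sequence only.

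Among the 544 tested miRNAs, those most like each member were found by the root mean square difference of log2 values over the 12 libraries, after each miRNA was set to its own mean. Nearest to miR-204-5p were miR-133a-5p, from a striated muscle hairpin (0.78), miR-100-5p (0.90), miR-409-5p of the imprinted Dlk1-Dio3 cluster (0.93), the striated muscle miR-1a-3p (1.01) and miR-338-3p, known from oligodendrocytes and other glia (1.02). Nearest to miR-211-5p were miR-409-5p (1.08), miR-204-5p itself (1.20), miR-99a-5p (1.21), miR-100-5p (1.24) and miR-338-3p (1.25). Seen from miR-204-5p, miR-211-5p was the 7th nearest. All of these miRNAs fell in SCC relative to skin, averaged. They were picked by likeness to the pair over the same libraries, so this fall follows from the choice and is no separate result. The 5 nearest to miR-204-5p, among them 2 muscle miRNAs and the glial miR-338-3p, were all nearer to it than miR-211-5p was. Of the 5 nearest to miR-211-5p, miR-409-5p alone was nearer to it than miR-204-5p, and none is a muscle miRNA. Each list stops at 5, so whether the members differ in their likeness to muscle miRNAs was not tested.

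**Figure D4:**
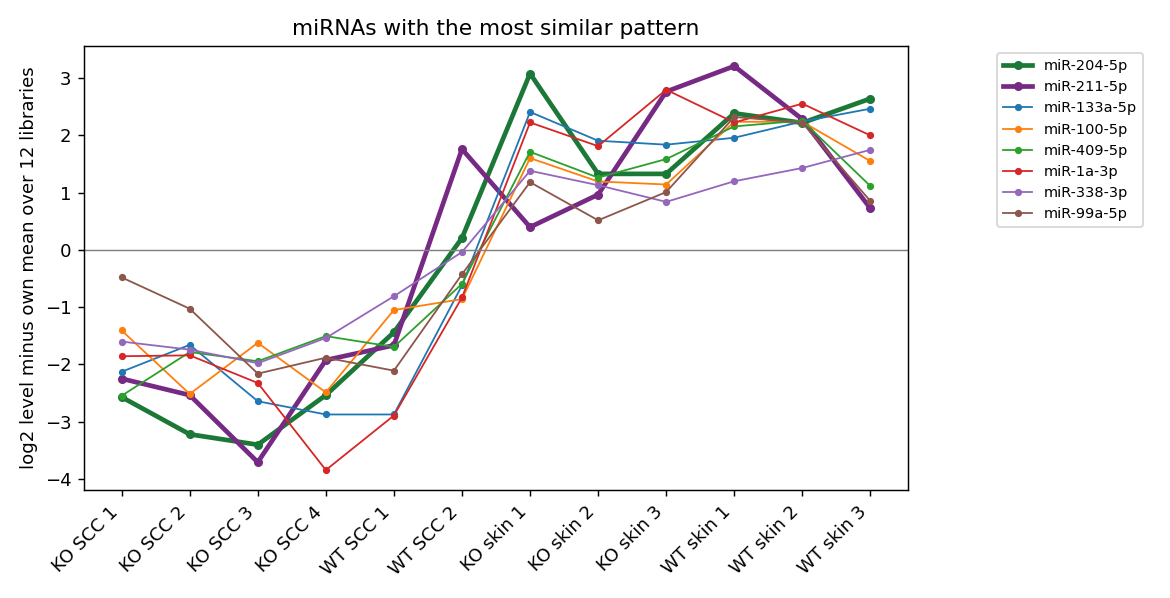
Log2 level minus each miRNA's own mean over the 12 libraries (vertical) for miR-204-5p, miR-211-5p (thick lines) and the miRNAs nearest to either, by library (horizontal). Every line is lower in the KO SCC libraries than in skin; at WT SCC replicate 2 miR-211-5p is the only one well above its mean.

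Other miRNAs tied to MITF were called in both directions. The list holds 9 miRNAs linked to MITF, such as miR-137 and miR-148, which are described as repressors of Mitf; all of them also act in other cells. In SCC relative to skin, averaged, 4 of its 8 tested members rose, 1 fell and 3 were not called, with a median of 0.56 (0.04 over all tested miRNAs). Over all tested miRNAs, 20.4% were called higher and 21.5% lower. miR-25-3p rose by 1.14 ± 0.18 (limma, adjusted p = 5.0e-04), miR-32-5p by 0.74 ± 0.22 (0.0207), miR-27a-3p by 0.65 ± 0.16 (0.00889) and miR-182-5p by 0.64 ± 0.21 (0.0310), while miR-101a-3p fell by 0.86 ± 0.18 (0.00265). The values of miR-148a-3p (0.20 ± 0.42), miR-148b-3p (0.45 ± 0.22) and miR-101b-3p (0.48 ± 0.22) did not pass. Brain-enriched miR-137-3p was at the floor in all 12 libraries. Without WT SCC replicate 2, miR-32-5p was not called (adjusted p = 0.0623). None of the 8 was called between genotypes in either tissue.

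In the neural crest or glial list most tested members fell. Of its 8 names 7 had a row, 5 were tested, and in SCC relative to skin, averaged, 4 fell and 1 rose, with a median of -1.65, beside 21.5% of all tested miRNAs called lower and 20.4% called higher. In KO mice 4 of the 5 were called lower, with a median of -2.44, beside 18.2% of all tested miRNAs. In WT mice 1 of the 5 was called lower, with a median of -0.88, beside 9.38% of all tested miRNAs. miR-338-3p averaged 7.96 in KO SCC and 9.25 in WT SCC, against 10.79 in KO skin and 11.13 in WT skin, and fell by 2.36 ± 0.21 (limma, adjusted p = 1.3e-05). Its star arm miR-338-5p fell by 1.65 ± 0.34 (0.00255), the neuronal miR-9-5p by 1.72 ± 0.41 (0.00663) and miR-128-3p by 1.23 ± 0.26 (0.00341). miR-219-5p, at the floor in 3 libraries, rose by 0.90 ± 0.31 (0.0370), a call that ended without WT SCC replicate 2 (0.76, adjusted p = 0.118). The remaining 2 members with a row, miR-124-3p and miR-9-3p, were at the floor in all 12 libraries. By contrast, miR-9-5p exceeded the floor in 11 libraries and miR-128-3p in 12.

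Markers of other tissues that moved in the same comparison are set beside the pair. The summed linear level of the 5 striated muscle miRNAs was 4750 to 16069 in KO SCC and 5914 and 31462 in WT SCC. It was 66537 to 90052 in KO skin and 73106 to 79738 in WT skin. Of the 5, 4 fell and none rose, beside 21.5% of all tested miRNAs called lower. The other member, miR-499-5p, named after its value was seen, was not called (1.20 ± 0.55, limma, adjusted p = 0.110). Its log2 level averaged 5.31 in KO SCC and 3.73 in WT SCC and was at the floor in skin. In KO SCC relative to KO skin, 1 of the 5 was called higher and 4 lower, beside 186 of 544 tested miRNAs called in either direction. WT SCC replicate 2, the tumour highest in the pair, was also the tumour highest in muscle miRNAs (31462) and in the neural crest or glial sum (1345, against 451 to 874 in the other 5 tumours). The keratinocyte sum overlapped between tissues, at 317880 to 634629 in KO SCC, 450985 and 511049 in WT SCC, 330301 to 403989 in KO skin and 335808 to 456779 in WT skin. Of its 8 members 1 rose and 2 fell, beside 20.4% of all tested miRNAs called higher and 21.5% called lower. miR-205-5p rose by 1.55 ± 0.19 (limma, adjusted p = 1.1e-04). The change of miR-203-3p was -0.60 ± 0.21 (limma, adjusted p = 0.0416), a call that ended without WT SCC replicate 2 (adjusted p = 0.0927). The other that fell, miR-184-3p, is named after its value was seen: its log2 level averaged 5.80 over the 12 libraries and fell by 2.66 ± 0.54 (limma, adjusted p = 0.00251). Against the same shares, fibroblast (0 of 6 rose, 2 fell), leukocyte (2 of 4 rose, none fell), endothelial (1 of 2 rose, none fell) and red cell (2 of 3 rose, none fell) lists complete the set. Without WT SCC replicate 2 the endothelial miR-126-5p was not called (limma, adjusted p = 0.107). The part of muscle or other tissue content in the decrease of the pair was not tested.

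**Figure D5:**
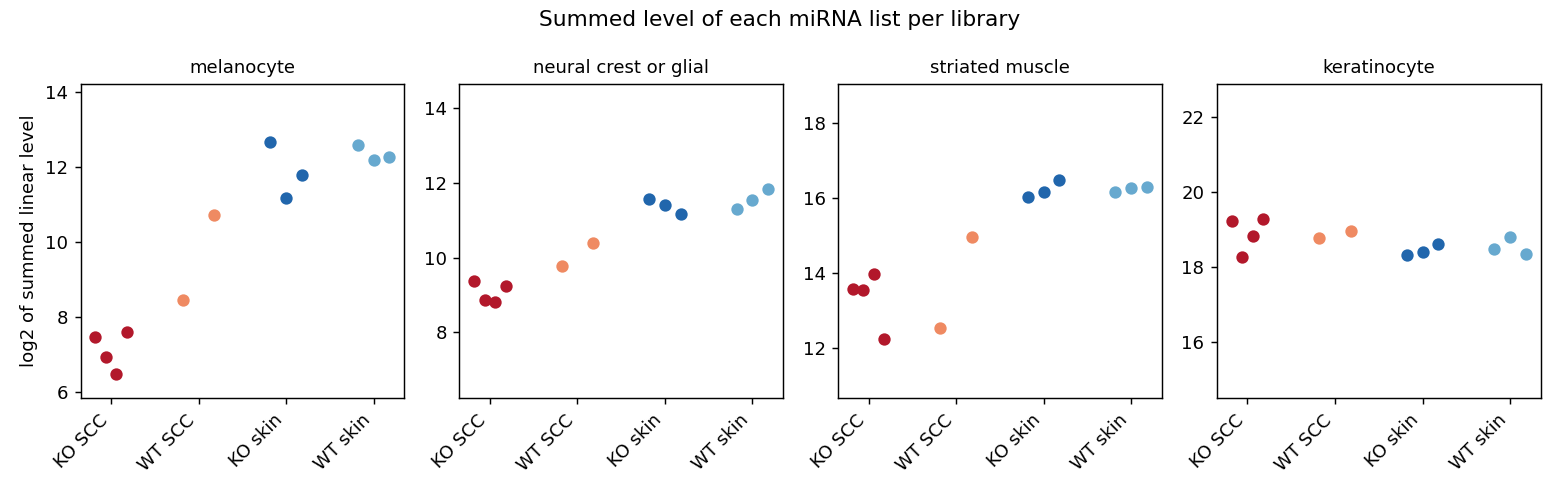
Log2 of the summed linear level (vertical; each panel spans the same number of log2 units) of the melanocyte pair and of 3 other miRNA lists in each library of KO SCC, WT SCC, KO skin and WT skin. The melanocyte, glial and muscle sums are lower in every tumour than in every skin library, as was so for 11.6% of tested miRNAs taken singly. The keratinocyte sums overlap. A linear sum weighs its most abundant member most, which is miR-133a-3p for muscle and miR-338-3p for glial (mean log2 levels 14.74 and 9.67). Of these, miR-338-3p is also among the miRNAs nearest to the pair.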

How the data were processed

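The miRVana kit was used to extract total RNA from frozen tissue, per the labels' protocols, and small RNA was sequenced in 12 libraries. The authors deposited 1 table of log2 values, 1251 miRNAs by 12 libraries. The submitters' processing notes name mm10 as the build. How reads were aligned and counted, and which miRBase release was used, is not given in the sources used here. The columns hold nearly the same set of values, so they had been quantile normalized, with a floor at 10 where 647 miRNAs sat throughout. Depth is unknown and counting intervals cannot be given. No 2 libraries were identical.

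The deposited values of 544 miRNAs were fitted by limma (3.58.1, in R 4.3.3) with 4 group means and trended, robust variances (8 residual degrees of freedom). P-values were adjusted by Benjamini-Hochberg within each comparison, with calls at an adjusted p under 0.05. Other scalings, filters and fits are in the closing section. Fits and exact tests were tested on simulated data. Named miRNAs are the pair, its other arms and seed mates, and the 5 nearest patterns of each member. Also named are the MITF-linked and neural crest or glial lists, and the 2 most abundant others per list. The miRNAs miR-20b-5p, miR-184-3p and miR-499-5p were named after their values were seen. The members and lists were chosen with earlier results of these data known. Replicates carry accession-order numbers, since the labels number no replicates within a group.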

Additional observations from a re-analysis of the deposited data

How the results depend on the processing

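The decreases of the pair in SCC, averaged and in KO mice, kept their direction and their call in every alternative run (scaling, filters, pseudocount, a floor of 50, variance model, library weights, abundant miRNAs, and each library left out; for KO mice also the KO groups alone). The averaged change lay between -4.35 and -3.53 for miR-204-5p (adjusted p 1.1e-05 to 2.5e-04) and between -3.86 and -2.15 for miR-211-5p (0.00129 to 0.0291). In WT mice, miR-204-5p kept its value of -3.03 but not its call with the WT groups alone (adjusted p = 0.0678), and ran from -3.85 to -2.21 with 1 library left out; miR-211-5p ran from -3.74 to -0.31. The log2 ratio of the pair, SCC against skin, ran from -1.43 to -0.40 with 1 library left out. The log2 ratio of the pair, KO against WT, ran from -0.27 to 0.76 with 1 library left out: it was -0.18 without WT SCC replicate 2, -0.27 without KO skin replicate 1 and -0.03 without WT skin replicate 1. The cause was not tested.

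Counts over all tested miRNAs moved by over 1.5 times in small comparisons. For WT SCC against WT skin, 99 were called in all, 62 with the WT groups alone, and, with 1 library left out, 30 (WT SCC replicate 1) to 116, including 65 and 61 when WT skin replicate 1 or 2 was dropped. For KO skin against WT skin, 0 became 22 with library weights, 4 with the floor at 50, and 0 to 2 with 1 library left out. For KO SCC against WT SCC, 1 became 0 with the filter at 6 libraries, the floor at 50 or those groups alone, 2 with neither trend nor robust variances, and 0 to 10 with 1 library left out, 10 being without WT SCC replicate 2; the interaction then also had 10, against 0 with all. Without WT SCC replicate 2, chosen after seeing the data, miR-219-5p was not called and 3 in place of 4 MITF-linked miRNAs rose. No paired analysis was possible because the labels give no replicate numbers.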

Other observations

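A relation within each tissue was computed after the values had been seen. The levels of miR-204-5p ranked the 6 tumours in the same order as those of miR-211-5p, with a Pearson r of 0.956 (exact permutation p = 0.00139, adjusted p = 0.00278 over 2 tissues) and a Spearman rho of 1 (exact permutation p = 0.00278, the smallest it can give, adjusted p = 0.00556). The permutation ignored genotype, although both miRNAs were lower in the KO tumours than in both WT tumours. Its p-values therefore partly restate that difference. Without the 2 tumours farthest from the median, which are both WT SCC, r was 0.867 over 4 libraries. After each genotype was set to its own mean, r was 0.961 over 6. There the 2 WT tumours mirror each other and carry most of the spread, so this r rests largely on them. Across the 6 skin libraries r was -0.38 (exact permutation p = 0.417, adjusted p = 0.417) and rho was -0.55 (exact permutation p = 0.272, adjusted p = 0.272); without KO skin replicates 2 and 3, the farthest from the median, r was -0.82 over 4 libraries. A difference between the tissues in this relation was not tested. The tumour libraries also differ along the first component and in muscle miRNAs, as given above, and the part of these in the relation was not tested.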
